A study of Bos taurus with 12 samples.

Results

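Gene deserts are long stretches of a chromosome that hold no annotated gene. The desert sites described here are the cytosines of the deposited table that its annotation places in distal intergenic sequence, at least 200000 bases from the nearest transcription start and on a numbered autosome. They number 27,737 of 216,990 cytosines, which is 12.8% of the table and 22.7% of its intergenic sites on autosomes. The distance and the annotation chose them, not the methylation values. A further 443 sites at such a distance lie on chromosome X or on unplaced scaffolds and are not counted.

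Whole blood was drawn from 12 cows (Bos taurus) aged 3 to 8 years, all raised on a single farm under the same conditions. The 6 subfertile cows were culled within the following year for reproductive complications that had not been identified when blood was taken, and the 6 fertile cows stayed in the herd without a fertility problem. DNA from 1 mL of blood per cow was converted enzymatically, which protects methylated and hydroxymethylated cytosines alike and turns unmodified cytosines into thymine after amplification. Each value is the percent of methylated calls at a cytosine in a cow.

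In vertebrate blood, as in most tissues, sequence far from genes is largely methylated, and dispersed repeats make up much of it. Gene deserts can hold enhancers that act on a distant gene, and deserts beside developmental regulators are known for this. In human cells that divide often, late replicating stretches with few genes are known to lose part of their methylation.

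All the sites in the table had been selected by the authors for a group difference of more than 25 points in either direction and for a q-value below 0.01. In the authors' deposited table, the absolute difference of desert sites ran from 25.01 to 74.7 points with a median of 34.3 points. A difference at a desert site is therefore given by the selection, and its p-value is not independent evidence. Columns whose names begin with F belong to cows labelled subfertile, and those with R to cows labelled fertile. What these letters stand for is not stated; groups follow the labels here, and each direction below would be the opposite if the letters contradicted them. The labels also give every subfertile cow a higher animal number than every fertile cow, and what the number stands for cannot be told apart from the group. Only percentages are given, so read depth is unknown. The share of desert sites without a value ran from 0.905% to 4.43% in subfertile cows, where cow 3 was highest, and from 0.573% to 2.30% in fertile cows. Whole blood is a mixture of cell types whose makeup was not measured, so a change in the share of a cell type and a change within cells cannot be told apart in any of these values.

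The label holds for most of the sites when gene edges are used in place of starts. The distance to the nearest start ran from 200,001 to 1,927,626 bases with a median of 336,267 bases, and 832 sites were over 1 Mb away. Of all desert sites, 95.4% lay at least 100000 bases and 88.0% at least 200000 bases from both edges of every gene that the table lists, while 113 sites were within 10000 bases of such an edge. Genes that the table does not list were not used. The nearest start was upstream or downstream about equally often, with 13,930 sites before the start and 13,807 after it. The nearest gene had no symbol in the table for 10,261 sites (37.0%). It carried a LOC symbol for 5138 sites (18.5%), and it was a small RNA gene by its deposited name for 3652 sites (13.2%), of which 2047 were U6 spliceosomal RNA. The 1000 desert sites nearest to the distance limit, at 200,001 to 206,870 bases, averaged 52.4% in subfertile cows and 48.7% in fertile cows. The 1000 intergenic sites just short of the limit, at 193,794 to 199,990 bases, averaged 51.9% in subfertile cows and 47.5% in fertile cows.

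Desert sites were less methylated than other intergenic sites in every cow. Their mean level was 51.6% ± 0.617 in subfertile cows and 49.6% ± 0.584 in fertile cows (SD, n = 6 each). Per cow, subfertile values were 50.7% at the lowest, 51.5% at the median and 52.4% at the highest, against 48.6%, 49.7% and 50.2% in fertile cows, so the groups did not overlap. Because the sites were selected for a group difference, that separation is a description. Other intergenic sites on autosomes averaged 54.6% ± 0.578 in subfertile cows and 52.4% ± 0.863 in fertile cows. Within a cow, desert sites were lower than other intergenic sites by -2.95 ± 0.696 points (SD, n = 12 cows), and the sign was the same in 12 of 12 cows. An exact two-sided sign-flip test over the cows gave p = 0.000488, the smallest this design allows, and the value was unaltered by Benjamini-Hochberg adjustment over 3 such comparisons. The test covers the spread among cows at a common set of sites, not the choice of sites. This comparison was not planned and was added after the data were seen. The gap was close in both groups, -3.03 points in subfertile cows and -2.87 points in fertile cows. It was -6.49 points once sites spanning both extremes, with a cow under 10% and another over 80%, were left out.

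Desert sites had fewer values near full methylation and more near none. Of desert values, 20.4% exceeded 90%, against 25.2% at other intergenic sites on autosomes and 27.2% at all other sites. The latter include autosomal sites in and beside genes, at 29.4%. The within-cow gap to other autosomal sites was -6.79 ± 0.784 points of share (SD, n = 12 cows, lower in 12 of 12). At the other end, 24.0% of desert values were under 10%, against 22.1% at other intergenic sites and 21.6% at all other sites. The within-cow gap to all other autosomal sites was 2.43 ± 1.202 points (SD, n = 12 cows, higher in 12 of 12). The exact sign-flip p was 0.000488 for both, again the smallest this design allows. It covers the spread among cows at these fixed sets of sites, not the choice of sites. Neither share was among the planned results. Another 18.6% of desert values lay between 40% and 60%.

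The share of values over 90% declined with distance from the nearest start, before and beyond the distance limit. It was 27.2% at 3000 to 10000 bases, 22.6% at 100000 to 200000 bases, 21.7% at 200000 to 300000 bases, 19.6% at 500000 to 750000 bases and 16.4% beyond 1 Mb. Every cow beyond 1 Mb, with 13.3% to 19.4%, was below every cow at 3000 to 10000 bases, with 24.7% to 29.9%. The mean level did not follow distance as closely. At 200000 to 300000 bases it was 53.2% ± 0.758 in subfertile cows and 49.1% ± 0.847 in fertile cows, and beyond 1 Mb it was 46.5% ± 3.07 in subfertile cows and 49.3% ± 0.950 in fertile cows (SD, n = 6 each).

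**Figure D1:**
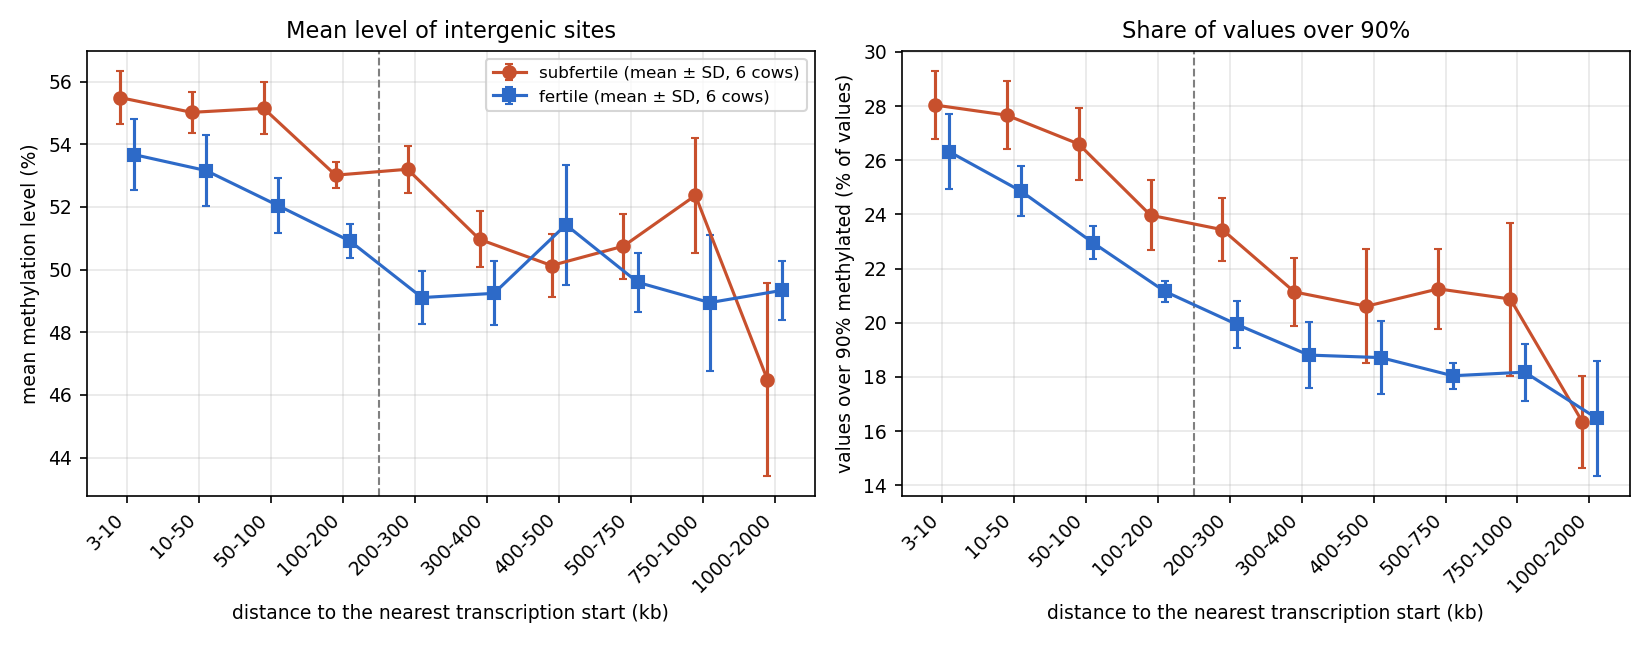
Mean methylation level (left, %) and share of values over 90% (right, % of values) of intergenic autosomal sites by distance to the nearest transcription start in kb, for subfertile and fertile cows (points are means over 6 cows, bars are SD, the dashed line is the distance limit of desert sites, and the vertical axes do not start at 0). The share over 90% declines from 27.2% of all values at 3000 to 10000 bases to 16.4% beyond 1 Mb.

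Subfertile cows were higher at 14,770 desert sites and lower at 12,967. The share that was higher, 53.3% (exact binomial 95% interval 52.7% to 53.8%, which treats sites as separate and covers counting error only), was the same as at other intergenic sites (53.3%) and above that of sites in and beside genes (50.6%). At sites higher in subfertile cows the mean level was 68.5% ± 1.72 in subfertile cows and 34.9% ± 2.59 in fertile cows. At sites lower in subfertile cows it was 32.3% ± 2.41 in subfertile cows and 66.3% ± 2.18 in fertile cows (SD, n = 6 each). The share of higher sites differed between chromosomes: subfertile cows were higher at most desert sites of 20 chromosomes and lower at most of 9. It was 70.9% on chromosome 28 and 36.3% on chromosome 23, where other sites had 51.3% and 56.0%.

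Cows of the same group differed widely at most desert sites. The median SD over a site's cows was 25.4 points in subfertile cows and 25.7 points in fertile cows, against a median absolute difference of 32.9 points between the groups. At 19,430 sites (70.1%) the cows spanned both extremes, from under 10% to over 80%, and the share at all other sites was 69.8%. A cytosine replaced by thymine in an animal's genome is read as unmethylated by this chemistry, and sequence differences between the cows were not tested. The groups did not overlap at 847 desert sites (3.05%), against 3.10% of all sites in the table, so desert sites did not stand out in this count. Subfertile cows were higher at 540 of them (1.94% of all sites in the table were non-overlapping and higher) and lower at 307 (1.16% of all sites in the table).

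No single desert site passed the test across the table. With limma on the log2 ratio of methylated to unmethylated percent, 5 points added to each, 0 of 27,737 desert sites had an adjusted p of at most 0.05, and the share called was 0% over all 216,990 sites. An unadjusted p under 0.05 was found for 13,948 desert sites (50.3%), against 52.7% of all sites. The lowest adjusted p was 0.0659. On plain percent values limma called 91 desert sites (0.328%), against 0.479% of all sites.

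Among sites with non-overlapping groups, the largest excess in subfertile cows was at chr2:57464444, whose nearest gene has no symbol. Subfertile cows had 63.6% at the lowest and 100% at the median and the highest, against 0%, 0% and 60% in the 5 fertile cows with a value (difference 72.2 points). Of the other 4 sites in this direction, 3 lay in the same 1 Mb of chromosome 17 near LOC512119, with differences of 70.5 to 71.9 points. The largest deficit was at chr7:99273750 near FAM174A. There, subfertile cows had 0% at the lowest and the median and 46.2% at the highest, against 61.5%, 100% and 100% in fertile cows, with 5 cows measured in each group (difference -75.1 points). Sites at chr22:25818267 and chr22:25758132, near the neural cell adhesion gene CHL1, followed with -73.8 and -70.3 points. At every site of this paragraph the cows spanned both extremes, from under 10% to over 80%.

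The sites farthest from any start lay on chromosome 15. At chr15:11364978, 1,927,626 bases from the nearest start, subfertile cows had 61.5% at the lowest, 67.5% at the median and 83.3% at the highest, against 23.1%, 34.4% and 50% in fertile cows. The groups did not overlap, and the difference was 33.4 points (limma adjusted p = 0.115). The next 4 sites by distance had overlapping groups, with differences of 24.2 to 32.6 points at 3 of them and -30.1 points at the other.

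Neighbouring desert sites shared their direction. Both strands of 5781 CpG sites were present, which gave 41.7% of the desert sites, and the difference had the same sign on both strands in 5781 of 5781 pairs. Their median gap within a cow was 6.10 points. The sign was shared by 92.3% of site pairs 2 to 100 bases apart, by 77.5% of pairs over 1000 to 10000 bases apart and by 53.9% of pairs over 100000 to 1000000 bases apart. In other intergenic sequence the shares at these spacings were 90.5%, 76.1% and 53.4%. The cows' deviations from their group means had a median correlation across the 12 cows of 0.91 at 2 to 100 bases, 0.71 at over 1000 to 10000 bases and 0.04 at over 100000 to 1000000 bases. These pairs share libraries and overlap, so the shares and correlations are descriptions.

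**Figure D2:**
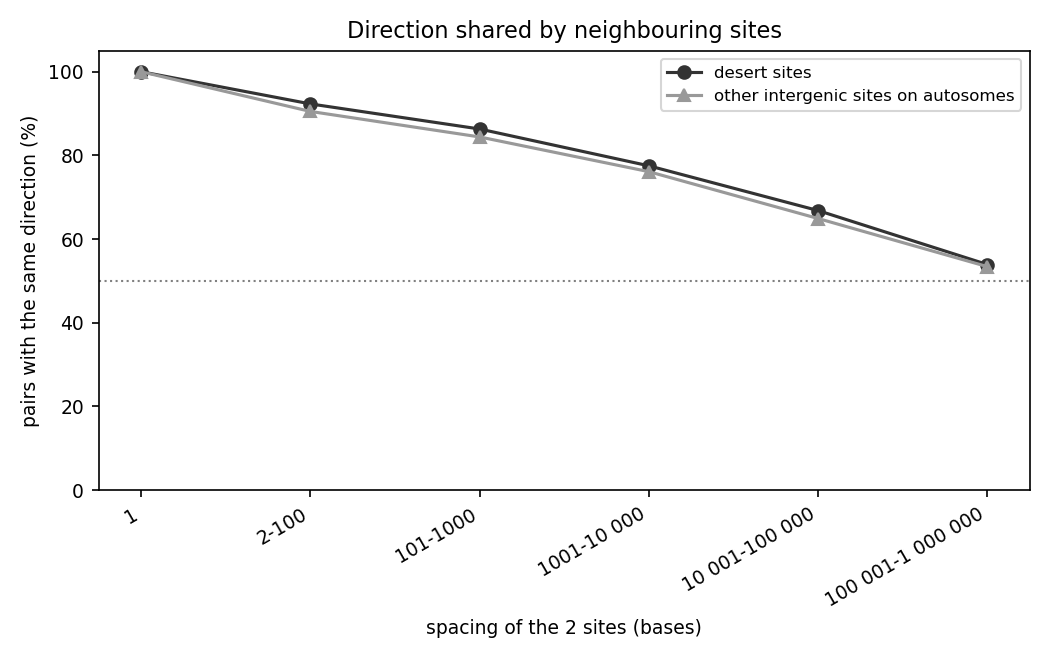
Share of site pairs whose subfertile minus fertile difference had the same sign (%), by spacing in bases, for desert sites and for other intergenic sites on autosomes (the dotted line marks 50%). The share in deserts was 100% for the 2 strands of a CpG and 53.9% for pairs over 100000 to 1000000 bases apart.

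Because of this, sites within 1000 bases of the next were joined into clusters and averaged per cow. The 16,159 desert clusters were mostly single sites (62.4%), 2134 held at least 3 sites and 92 held at least 10. All sites had the same direction in 81.6% of desert clusters of 3 or more, against 75.2% of such clusters elsewhere. Among clusters of exactly 3 sites the shares were 84.0% and 77.9%.

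Clusters passed limma about as often in deserts as elsewhere. Of 2129 desert clusters with at least 3 sites and a value in every cow, 507 (23.8%) had an adjusted p of at most 0.05, against 24.4% of all 17,767 clusters tested. Subfertile cows were higher in 268 called desert clusters and lower in 239, against 13.2% and 11.2% of all clusters called in each direction, and which of the 2 was the larger changed with the processing (35 higher and 42 lower at 500000 bases or more). The median absolute difference of called desert clusters was 39.0 points. The count fell whichever cow was left out. It was 350 without fertile cow 5. Without each of the other 11 cows it lay between 126 (subfertile cow 6 left out) and 315 (subfertile cow 5 left out). Over all clusters the share called fell as well, to 5.86% without subfertile cow 6. A total of 83 desert clusters were called in the full set and without each cow in turn, 47 higher and 36 lower, which is 3.90% of those tested against 3.54% of all clusters. The groups did not overlap in 89 desert clusters (4.18%, against 4.08% of all clusters), of which 77 were also called.

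At an adjusted p of at most 0.01, 4 desert clusters were called (0.158% of all clusters tested passed this limit), all higher in subfertile cows. They are named after their values were seen, although the rule for named clusters also takes the last 2. At chr8:14259171-14259940, with 4 sites and a nearest gene without a symbol, subfertile cows had 29.1% at the lowest, 45.8% at the median and 50.6% at the highest, and every fertile cow was at 0% (limma adjusted p = 0.00303). At chr2:11968264-11968743, with 3 sites, subfertile cows had 28.9%, 35.3% and 70.5%, and every fertile cow was again at 0% (limma adjusted p = 0.00514). At chr2:11895190-11895842, in the same 1 Mb and also with 3 sites, subfertile cows had 44.1%, 60.9% and 85.8%, against 0%, 2.38% and 11.9% in fertile cows (limma adjusted p = 0.00565).

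The fourth had the smallest SD of the 4 in subfertile cows and the largest in fertile cows. At chr8:20857887-20858518, nearest to ELAVL2, which encodes a neuronal RNA-binding protein and starts 491,803 bases away, subfertile cows had 84.1% at the lowest, 89.3% at the median and 94.5% at the highest, against 33.9%, 39.6% and 49.8% in fertile cows. The means were 89.4% ± 3.62 in subfertile cows and 40.2% ± 6.05 in fertile cows (SD, n = 6 each), a difference of 49.2 points (limma adjusted p = 0.00565). At all 4 of its sites the groups were apart. Cows spanned under 10% to over 80% at 1 of these 4 sites, and at 3 of 3 sites of chr2:11895190-11895842. Without each cow in turn, the highest limma adjusted p was 0.00739 at chr8:14259171-14259940 and 0.00922 at chr2:11968264-11968743. It was 0.0128 at chr2:11895190-11895842 and 0.01402 at chr8:20857887-20858518, so these 2 passed above the limit of 0.01.

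Clusters were named among called desert clusters whose groups did not overlap, at most 1 per Mb. Of the 10 with the largest excess in subfertile cows, a 4-site cluster at chr17:37250987-37251001 near LOC512119 led. Subfertile cows had 53.2% at the lowest, 73.2% at the median and 94.6% at the highest, against 0% in 5 fertile cows and 46.3% in fertile cow 4. The difference was 65.0 points (limma adjusted p = 0.0217). Next was chr18:677914-677918, 324,162 bases from UQCRFS1, which encodes the Rieske iron-sulphur subunit of respiratory complex III. Subfertile cows had 51.5%, 59.9% and 100%, against 0%, 3.70% and 43.3% in fertile cows, a difference of 59.6 points (limma adjusted p = 0.0297). The groups did not overlap in either cluster, which the rule required. Cows spanned under 10% to over 80% at 4 of 4 sites of the first and 3 of 3 of the second.

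Other clusters of this group lay near KCNH5, a voltage-gated potassium channel gene (chr10:74814603-74814816, 50.1 points), ROBO1, an axon guidance receptor gene (chr1:26525532-26525834, 49.5 points), and FAR2, a fatty acyl-CoA reductase gene (chr5:80743814-80743858, 48.6 points). In the ROBO1 cluster, subfertile cows had 40.4% at the lowest, 54.7% at the median and 91.1% at the highest, against 0%, 0% and 38.9% in fertile cows (limma adjusted p = 0.0334). The cluster near KCNH5 lost its call without subfertile cow 1, 3 or 6, and that near FAR2 lost it without any of 5 cows.

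In the opposite direction and under the same rule, the largest difference was at chr5:7970992-7971337, with 3 sites and a nearest gene without a symbol. Subfertile cows were at 0% in 5 animals and at 1.96% in cow 6, against 2.78% at the lowest, 53.8% at the median and 91.7% at the highest in fertile cows (difference -53.5 points, limma adjusted p = 0.0297). At chr17:2350829-2351944, nearest to RBM46, a germ cell RNA-binding protein gene, subfertile cows were at 0% in 5 animals and at 45.03% in cow 2, against 46.4%, 52.1% and 84.3% in fertile cows (difference -50.6 points, limma adjusted p = 0.0297). At chr22:25876193-25876952, near CHL1, subfertile cows were at 0% in 5 animals and at 23.9% in cow 5, against 24.7%, 51.8% and 80.9% in fertile cows (difference -48.8 points, limma adjusted p = 0.0246). In all 3 clusters the groups were separated by a narrow margin, while the medians lay far apart. Cows spanned under 10% to over 80% at 2 of 3, 3 of 4 and 2 of 5 of their sites, in this order.

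A 9-site cluster at chr27:43781246-43782698 near ZNF385D showed another layout. Subfertile cows were spread widely and fertile cows were all high, with 0% at the lowest, 33.2% at the median and 78.1% at the highest in subfertile cows, against 80.03%, 85.7% and 90.5% in fertile cows (difference -48.4 points, limma adjusted p = 0.0446). Of the 20 clusters named for the largest differences, 12 kept the call without each cow in turn, and this cluster lost it without any of 9 cows.

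**Figure D3:**
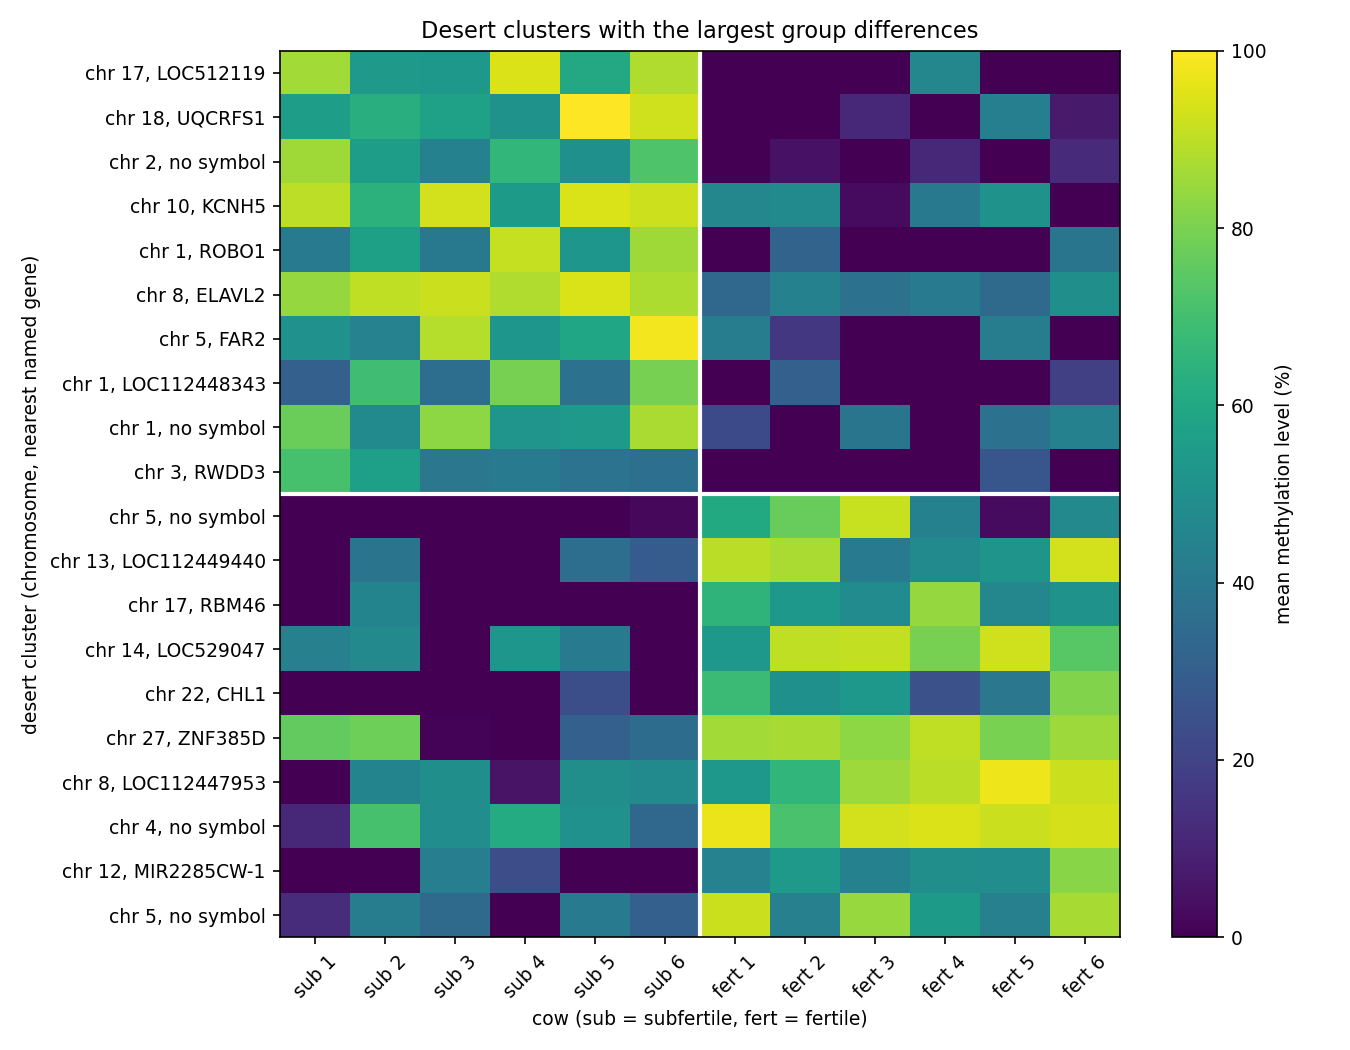
Mean methylation level (colour, %) of the 20 called, non-overlapping desert clusters with the largest group differences, at most 1 per Mb. They are the 10 higher and the 10 lower in subfertile cows. Each row is labelled by chromosome and nearest gene, and each column is a cow. Subfertile cows are on the left of the white line and fertile cows on the right, and many cells lie near 0%, near 50% or above 80%.

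The clusters with the most sites were runs in which all or most cytosines shared the direction of their difference. The largest had 29 sites at chr5:96351469-96356968, 297,209 bases from EMP1, an epithelial membrane protein gene, and all 29 were higher in subfertile cows. Its cluster mean was 44.6% at the lowest, 49.2% at the median and 91.1% at the highest in subfertile cows, against 0%, 0.265% and 48.0% in fertile cows. The groups overlapped, and the difference was 40.1 points (limma adjusted p = 0.0431, lost without any of 8 cows). A 24-site cluster at chr1:27814792-27822504 had all sites lower, with 0%, 0% and 46.0% in subfertile cows, against 37.6%, 40.4% and 84.5% in fertile cows (difference -40.1 points, limma adjusted p = 0.0427, lost without any of 7 cows). A 21-site cluster at chr20:68962873-68964957 was called at an adjusted p of 0.0477 by limma, which it lost without any of 11 cows. The clusters of 26 sites on chromosome 24 and of 21 sites on chromosome 19 were not called (limma adjusted p = 0.0605 and 0.0752).

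Desert sites were gathered in some windows. Of 989 windows of 1 Mb with a desert site, 404 held at least 20, with 23,296 sites in all. Subfertile cows were higher at 90% or more of the sites in 35 of these windows and lower at 90% or more in 16. The window with the most sites, chr13:82093858-82993795 between DOK5, a docking protein gene of receptor tyrosine kinase signalling, and CBLN4, a cerebellin gene, held 307 sites, of which 219 were higher. Its mean was 60.7% at the lowest, 63.8% at the median and 70.7% at the highest in subfertile cows, against 42.9%, 48.3% and 62.6% in fertile cows, so the groups overlapped. At chr7:99003866-99607642 near FAM174A, 187 of 210 sites were lower. Subfertile cows there had 11.4%, 36.9% and 84.3%, against 47.6%, 72.9% and 83.7% in fertile cows, and subfertile cow 2 was above all fertile cows. At chr29:30083054-30988350 near KIRREL3, a synaptic adhesion gene, 91 of 181 sites were higher and the means were 47.9% ± 3.98 in subfertile cows and 48.7% ± 4.22 in fertile cows (SD, n = 6 each).

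Sites with non-overlapping groups were unevenly spread over the windows. Of the 404 windows, 148 had none and 18 had at least 10% of their sites in this state. The 5 windows with the highest share held 100 of the 847 sites (11.8%), which their choice favours. Neighbouring sites are not separate, and the unevenness to be expected from that was not computed. The highest share was 41.1%, at chr2:11879255-11999921, where 30 of 73 sites did not overlap and all 30 were higher in subfertile cows. The nearest genes of this window have no symbol in the table. Over all 73 sites, subfertile cows had 44.5% at the lowest, 49.2% at the median and 83.9% at the highest, against 14.1%, 26.3% and 30.5% in fertile cows. The groups did not overlap, and subfertile cow 1 was the highest. Choosing the 5 windows by their share of non-overlapping sites favours separated means in each of them.

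At chr18:481052-798952 near UQCRFS1 all 33 sites were higher in subfertile cows. Subfertile cows 5 and 6 had 81.7% and 80.8%, and the other 4 subfertile cows had 42.0% to 45.4%. Fertile cow 5 had 44.6%, and the other 5 fertile cows had 3.52% to 7.15%. The 12 cows thus fell at 3 levels, and fertile cow 5 overlapped the lower subfertile cows. At chr17:2324067-2380859, between RBM46 and NPY2R, a neuropeptide Y receptor gene, 56 of 59 sites were lower. Subfertile cows had 4.37% at the lowest, 11.95% at the median and 46.1% at the highest, against 51.1%, 56.0% and 81.5% in fertile cows. The groups did not overlap, which the choice of this window favours.

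At chr22:25554955-25935743 near CHL1, 108 of 115 sites were lower. Subfertile cows had 6.10% at the lowest, 6.44% at the median and 34.3% at the highest, against 34.1%, 52.5% and 80.01% in fertile cows. Subfertile cow 5 lay just above fertile cow 4, and the other 5 subfertile cows lay below every fertile cow. At chr17:37193823-37998123 near LOC512119, 122 of 150 sites were higher, with 42.1%, 57.3% and 70.2% in subfertile cows, against 17.6%, 27.6% and 49.0% in fertile cows. Here fertile cow 4 lay above 3 of the subfertile cows.

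**Figure D4:**
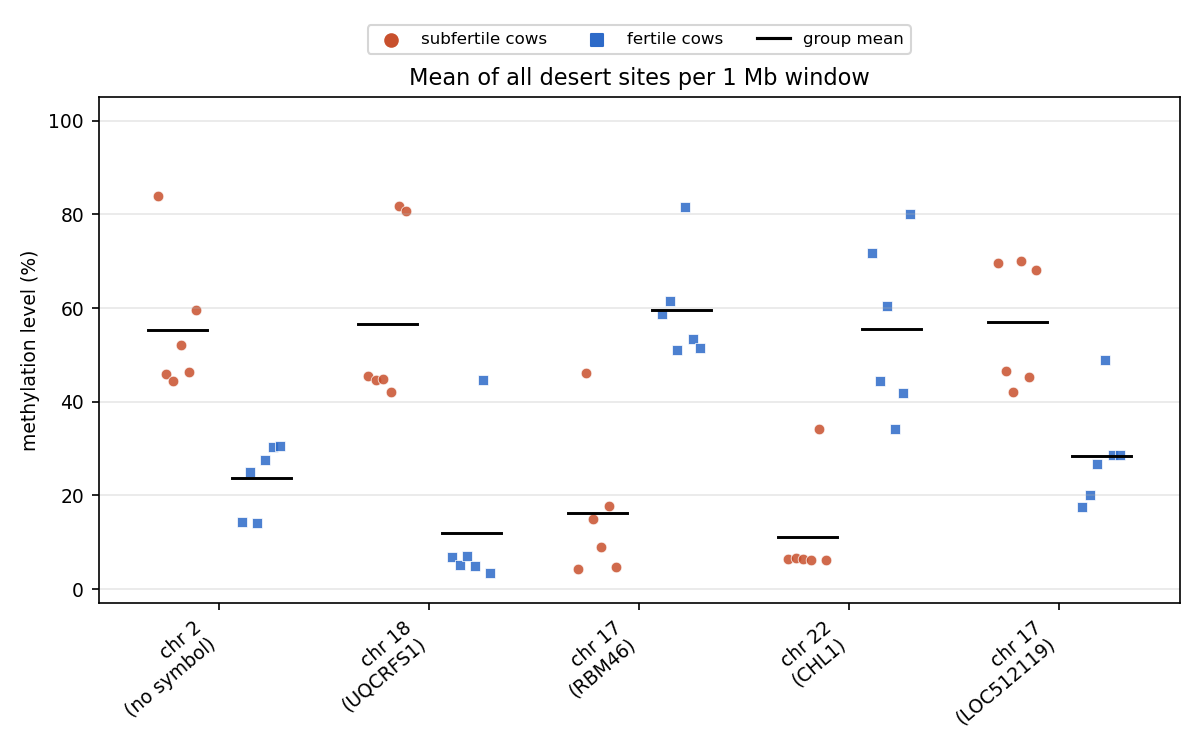
Mean methylation level (%) of all desert sites in the 5 windows of 1 Mb with the highest share of sites whose groups do not overlap, labelled by chromosome and nearest gene. Points are cows, subfertile left and fertile right in each pair, and bars are group means; at the chromosome 18 window, 2 subfertile cows lie near 81% and fertile cow 5 lies at 44.6%, apart from the other fertile cows.

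Nearest genes were read in 3 lists by role. A nearest gene across a desert need not be the gene that a site acts on, and clusters near the same gene are not separate measurements. Counts near a gene are therefore descriptions, to be read against the 23.8% of desert clusters and the 24.4% of all clusters called. Of 25 listed regulators of blood cell development, 6 were the nearest gene of a desert site, with 193 sites, 57 higher and 136 lower in subfertile cows. Of their 16 clusters, 10 (62.5%) were called, 1 higher and 9 lower. Clusters near ETS1 gave 7 of these calls and clusters near MYC gave 3, so the share describes 2 stretches and not the list. The median difference of the 16 clusters, 11 near ETS1 and 4 near MYC, was -34.8 points, against 8.19 points over all desert clusters. With an offset of 1 point, 2 of the 16 were called, against 5.12% of all desert clusters. Without subfertile cow 1, 1 of the 16 was called, and without subfertile cow 3, 10 were. Calls over all clusters fell as well, to 8.69% without subfertile cow 1 and 5.86% without subfertile cow 6. A drop in the counts below therefore cannot be assigned to the cow left out.

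ETS1, a transcription factor of lymphocytes, had 91 desert sites at chr29:31236978-31683782, 201,878 to 648,682 bases away, and 71 were lower in subfertile cows. Their mean was 44.9% at the lowest, 45.6% at the median and 70.0% at the highest in subfertile cows, against 67.6%, 71.3% and 72.8% in fertile cows. The fertile cows were close together (SD 2.05 points), and 1 subfertile cow reached into their range. Of 11 clusters near ETS1, 7 were called by limma, 6 of them lower in subfertile cows. Without subfertile cow 1, 1 was called, and without subfertile cow 3, 10 were. MYC, a transcription factor that drives growth and division, had 44 desert sites at chr14:12891528-13193037, of which 43 were lower. Subfertile cows had 2.42%, 39.8% and 60.4%, against 47.5%, 68.6% and 90.5% in fertile cows. Of 4 MYC clusters, 3 were called, all lower (0 without subfertile cow 1 and 3 without subfertile cow 5). SATB1, a chromatin organiser of T cells, ran the other way, with 29 of 37 sites higher and means of 69.8% ± 10.5 in subfertile cows and 50.9% ± 12.6 in fertile cows (SD, n = 6 each). Its only tested cluster was not called. PRDM1, a repressor in plasma cell formation, had 5 of 10 sites higher.

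Of 50 listed developmental transcription factors, 16 were nearest to a desert site, with 401 sites, 197 higher and 204 lower. Of their 38 clusters, 17 (44.7%) were called, 3 higher and 14 lower. Without subfertile cow 6, 1 was called, and without subfertile cow 3, 14 were. The lower calls came mostly from ID4, an inhibitor of basic helix-loop-helix factors, with 118 sites at chr23:38347878-38548557. Subfertile cows there had 16.0% at the lowest, 19.9% at the median and 50.3% at the highest, against 47.9%, 50.1% and 73.1% in fertile cows. A pair of subfertile cows lay in the range of the fertile cows and 4 lay below it. Of 17 ID4 clusters, 14 were called, 13 of them lower. Without subfertile cow 6, 0 of 17 were called, and without subfertile cow 3, 13 were. Subfertile cow 6, at 16.0%, was close to subfertile cow 5 (16.4%) and subfertile cow 4 (17.2%) near ID4. IRX1, an Iroquois homeobox gene, had 41 of 44 sites higher, with 52.9%, 84.3% and 85.4% in subfertile cows, against 12.6%, 38.6% and 82.2% in fertile cows, and 0 of 5 clusters called. TSHZ1, a zinc-finger homeobox gene, had 22 of 26 sites lower, with means of 21.3% ± 14.7 in subfertile cows and 57.5% ± 19.8 in fertile cows (SD, n = 6 each). SOX11 (38 of 46 sites higher), MEIS2 (16 of 22) and TSHZ3 (15 of 20) leaned the other way, and ZFHX3 was even, with 24 of 49.

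Of 64 listed genes of neuronal adhesion and synapses, which often border deserts, 30 were nearest to a desert site, with 1268 sites, 628 higher and 640 lower. Of 98 clusters, 27 (27.6%) were called, 18 higher and 9 lower. Without subfertile cow 1, 5 were called, and without subfertile cow 5, 21 were. ROBO1 had the most desert sites of any gene with a symbol, 293 over chr1:25814592-27267534, and its means were 41.8% ± 8.46 in subfertile cows and 47.0% ± 8.70 in fertile cows, with 129 sites higher and 164 lower (SD, n = 6 each). Of 28 ROBO1 clusters, 6 were called higher and 1 lower, and 16 had a negative difference. In all, 3 were called without subfertile cow 1 and 16 without fertile cow 6. PCDH17, a protocadherin gene, had 135 sites and 8 of 12 clusters called, 4 in each direction. Without fertile cow 1, 0 were called, and without subfertile cow 5, 6 were. CDH11, a cadherin gene, had 66 sites higher and 66 lower, and its means were 54.5% ± 4.15 in subfertile cows and 54.6% ± 4.95 in fertile cows. CNTN4, a contactin gene, had 62 of 89 sites lower. Its subfertile cows all lay between 26.5% and 27.8%, against 23.6% at the lowest, 35.2% at the median and 68.0% at the highest in fertile cows, and 0 of 6 clusters were called.

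Among the other genes with the most desert sites, MBD2, which encodes a reader of methylated CpG sites, had 191 at chr24:53038969-53439691, with 62 higher and 129 lower. Subfertile cows had 29.0% at the lowest, 36.2% at the median and 41.7% at the highest, against 37.5%, 49.2% and 56.0% in fertile cows. Of 23 clusters, 13 were called, 4 higher and 9 lower (1 without subfertile cow 1 and 10 without fertile cow 3). DOK5 had 140 of 200 sites higher and 11 of 22 clusters called, 8 higher and 3 lower. Near DOK5, 3 were called without subfertile cow 1 and 10 without subfertile cow 5. Its subfertile cows had 53.3%, 58.1% and 68.5%, against 37.6%, 44.3% and 59.2% in fertile cows. GALNT7, an enzyme gene of mucin-type O-glycosylation, had 103 of 147 sites lower and 7 of 14 clusters called. Of these 14, 1 was called without subfertile cow 1 and 6 without subfertile cow 3. EFNA5, an ephrin ligand gene, had 119 of 200 sites lower and 2 of 22 clusters called (0 without subfertile cow 3 and 7 without fertile cow 5). DMRTA1, a DM domain transcription factor gene, had 113 of 162 sites higher. Its means were 49.5% ± 14.4 in subfertile cows and 32.7% ± 8.87 in fertile cows (SD, n = 6 each), and 0 of its 18 clusters were called by limma, with 11 of 18 at an unadjusted p under 0.05 and 7 called without subfertile cow 1.

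**Figure D5:**
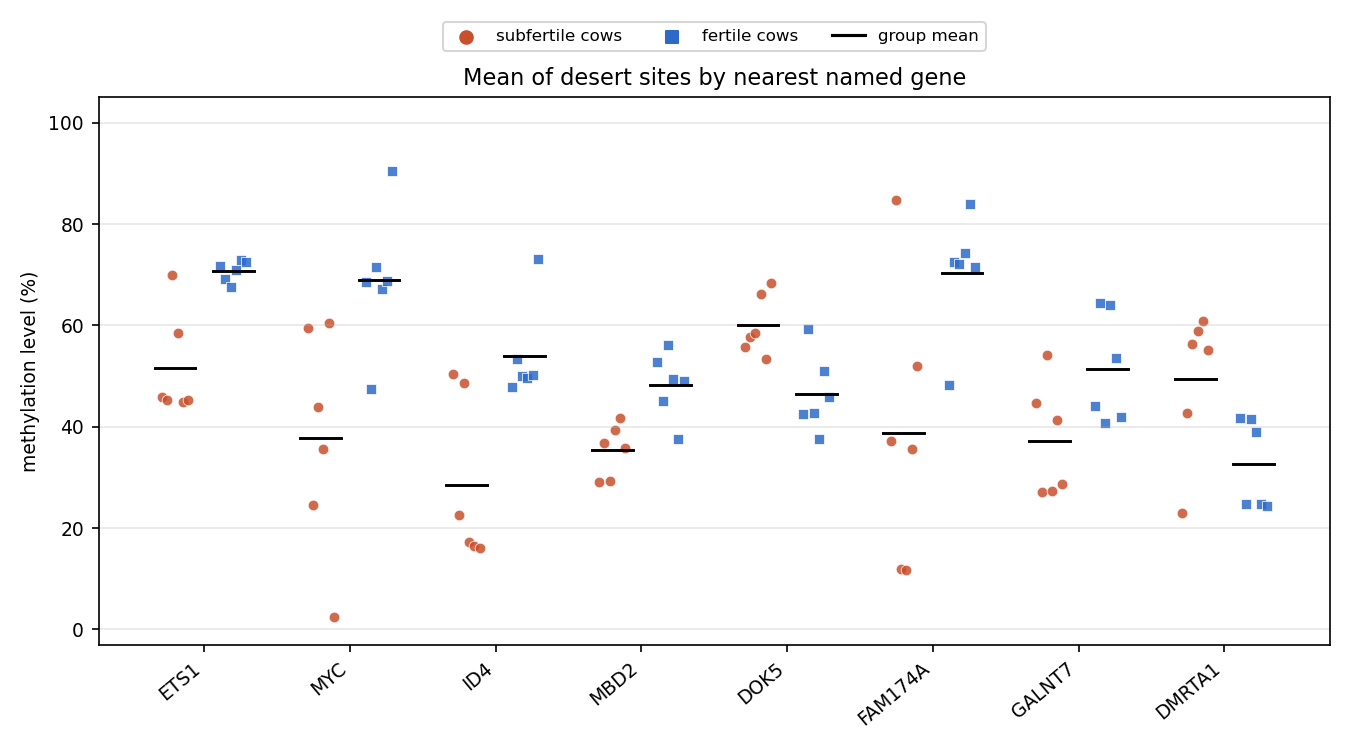
Mean methylation level (%) of all desert sites nearest to each of 8 genes, with subfertile cows left and fertile cows right in each pair and bars at the group means. The groups overlap for all 8 genes; fertile cows near ETS1 lie between 67.6% and 72.8%, and 4 subfertile cows near ID4 lie below every fertile cow.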

How the data were processed

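Per the labels, blood DNA of 6 subfertile and 6 fertile cows was sequenced after enzymatic conversion. Bismark, DRAGEN, fastp 0.23.1 and ChIPseeker 1.32.1 were used with build ARS-UCD1.2, per the submitters' processing notes. The deposited table gives, per the file headers, the percent methylated per cow, the authors' difference (a score in points), p-values and q-values, the annotation, the distance to the nearest start and the gene symbol. Read counts are not given, so no model on reads could be used and no depth or floor can be stated. Each cow's column was matched to its label by animal number. Replicates were numbered within each group, and the labels describe each sample as a separate cow.

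Differences are subfertile minus fertile means over cows. Limma 3.58.1 (R 4.3.3) was run on log2((percent + 5)/(100 − percent + 5)) with no term but the group. P-values were adjusted by Benjamini-Hochberg over all 216,990 sites or all 17,767 clusters, and the call was at 0.05. Sites lacking a cow's value were fitted on the remaining cows. Clusters joined sites within 1000 bases and were desert clusters where every site was a desert site, which left out 23 mixed clusters. Named items were the 10 called, non-overlapping clusters with the largest difference in each direction (at most 1 per Mb), the 5 with the most sites, the 10 windows with the most sites, the 5 with the highest non-overlapping share, 5 sites per direction, the 5 farthest sites, the 10 nearest genes with the most sites and up to 8 list members with at least 10 sites. The desert sites, lists and tests were chosen with earlier results of these data known. Alternatives covered the offset, scale, joining distance, distance limit, filters and leaving out each cow. No genome was used, so no sequence is shown.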

Additional observations from a re-analysis of the deposited data

Results flagged for a closer look

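Dixon's test at the 95% level was applied to 94 groups of 6 cows and singled out 18 values. Its nominal rate of 1 in 20 assumes normal values and does not hold here. Where 5 cows are tied at 0%, any other value of the remaining cow is singled out. Many groups were also chosen for large or separated values, so the 18 values are descriptions. Many of these groups share sites and cows. In the whole set of desert sites, subfertile cow 3 lacked a value at 4.43% of sites, against a group median of 1.23%, and fertile cow 5 averaged 62.1% at the sites lower in subfertile cows, against a group median of 66.8%.

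In windows, single subfertile cows stood apart at 34.3% (cow 5, chromosome 22 near CHL1, group median 6.44%) and at 46.1% (cow 2, chromosome 17 near RBM46, group median 11.95%). Single fertile cows stood apart at 81.5% (cow 4, chromosome 17 near RBM46, group median 56.0%), at 49.0% (cow 4, chromosome 17 near LOC512119, group median 27.6%), at 44.6% (cow 5, chromosome 18 near UQCRFS1, group median 6.02%) and at 47.6% (cow 1, chromosome 7 near FAM174A, group median 72.9%).

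In clusters, subfertile cows stood apart at 45.03% (cow 2, chromosome 17 near RBM46), 23.9% (cow 5, chromosome 22 near CHL1) and 1.96% (cow 6, chromosome 5 from 7970992), where the other 5 subfertile cows were at 0%, and at 91.1% (cow 4, chromosome 5 near EMP1, group median 49.2%). Fertile cows stood apart at 46.3% (cow 4, chromosome 17 near LOC512119) and 26.9% (cow 5, chromosome 3 near RWDD3), where the other 5 fertile cows were at 0%. The rest were fertile cow 5 at 43.3% on chromosome 18 near UQCRFS1, fertile cow 2 at 71.2% on chromosome 4 from 7063911, fertile cow 6 at 82.2% on chromosome 12 from 66927188, and fertile cow 2 at 77.5% on chromosome 20 from 68962873. Of the windows, the same cow stood apart in the cluster and in the window around it near RBM46 (subfertile cow 2), CHL1, UQCRFS1 and LOC512119. No explanation of these values was tested.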

How the results depend on the processing

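The causes of the changes below were not tested unless the alternative itself sets the number of sites or cows. Called desert clusters, 507 of 2129 (23.8%, against 24.4% of all clusters), numbered 109 with an offset of 1 point (5.12%, against 4.72%), 781 on plain percent values (36.7%, against 35.3%), 66 of 2571 with sites joined within 5 kb (2.57%, against 2.37%), 254 of 5993 with at least 2 sites (4.24%, against 4.25%), 260 of 675 with at least 5 sites (38.5%, against 41.1%), 278 of 328 without sites at which cows spanned under 10% to over 80% (84.8%, against 79.0%), 981 of 3996 at distances of 100000 bases or more (24.5%, against 24.4%), 77 of 414 at 500000 bases or more (18.6%, against 24.4%), and 4 at an adjusted p of 0.01 (0.188%, against 0.158%). The balance of called clusters, 268 higher and 239 lower, turned to 35 and 42 at 500000 bases or more, 233 and 255 at a difference of 35 points or more and q of at most 0.001, 31 and 35 with joining within 5 kb, 123 and 131 with at least 2 sites, and 137 and 143 without subfertile cow 4, and it was even, 104 and 104, without subfertile cow 3. The share of sites higher, the mean level difference, the desert gap and the named clusters kept their direction under the alternatives run for them. Leaving out each cow gave 126 to 350 called clusters. Called single sites, 0 in the report, numbered 91 on plain percent values (0.328%, against 0.479% of all sites) and 6042 of 8307 without the spanning sites (72.7%, against 73.0%). Dropping the spanning sites removes sites with a wide spread among cows, while every site kept was selected for a group difference. This alternative therefore favours a high share called, for sites and for clusters, and its calls are not added evidence. Non-overlapping sites numbered 847 (3.05% of desert sites, against 3.10% of all sites). They numbered 1734 (3.46%) at 100000 bases or more and 175 (3.05%) at 500000 bases or more. Under the stricter difference and q they numbered 504 (4.75%), and without the spanning sites 513 (6.18%). Without each cow they numbered 1235 to 1504 (4.45% to 5.42%). These shares are of the sites kept in each alternative, and the matching shares over all sites were not computed. The share higher in subfertile cows, 53.3%, was 52.1% at 500000 bases or more, 51.9% under the stricter difference and q, 56.3% without the spanning sites and 53.9% with clusters counted once, and 53.24% to 53.26% without each cow. The group difference in mean level, 2.04 points, was 0.984, 1.34 and 3.76 points under the first 3 of these and 1.84 to 2.22 points without each cow. The desert gap to other intergenic sites was -6.49 points without the spanning sites. This comparison and its alternatives were added after seeing the data. Of 365 alternative values for the 25 named clusters, 286 kept their side of the threshold, 78 lost the call and 1 gained it. No paired analysis was possible because the groups share no animal and the replicate numbers are only names. Read depth is unknown.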
